A study of Mus musculus with 6 samples.

Results

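The genes described here are 10 genes of the hepatic Wnt/β-catenin circuit: the RSPO-LGR-ZNRF3 module that sets Wnt receptor levels (Rspo3, Lgr4, Lgr5, Rnf43 and Znrf3), Wnt target genes that serve as feedback or lineage regulators (Axin2 and Tbx3), and genes of pericentral hepatocytes (Glul, Lect1 and Rhbg). They were taken by gene name from a table of 54532 genes, and all 10 were present. Lect1 is listed there under its current symbol Cnmd, a match made through the RefSeq synonyms, and is called Cnmd below. The livers came from male C57BL/6J mice made insulin resistant (IR) on a high-fat diet, started at 8 weeks of age and kept up for 6 weeks. After a 16 h fast, 3 mice received an injection of insulin at 0.75 units per kg (IR insulin) and 3 received its carrier, bovine serum albumin (IR vehicle), and liver RNA was sequenced 6 h later. Diet, fast and injection were thus common to both groups, which differed in insulin alone. No chow-fed mice are among these 6 samples, so the comparison concerns insulin within the IR state.

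Wnt ligands reach hepatocytes mainly from endothelial cells of the central vein, and the neighbouring hepatocytes answer through β-catenin with a pericentral programme that includes glutamine synthesis and drug metabolism. RNF43 and ZNRF3 are membrane E3 ubiquitin ligases that remove Frizzled receptors from the cell surface, and R-spondins such as RSPO3, bound to LGR4 or LGR5, take these ligases away and so sensitise the cell to Wnt. AXIN2, RNF43, ZNRF3 and LGR5 are themselves encoded by Wnt target genes, which makes the circuit a feedback loop. Hepatocytes around the portal vein, where Wnt activity is low, instead carry out urea synthesis and gluconeogenesis.

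The vehicle libraries held 18449986 to 21614773 read counts and the insulin libraries 19844295 to 21827619. Values are read counts scaled to a common library size with TMM factors (CPM), given for mice 1, 2 and 3 of a group, or as mean ± SD (n = 3). Groups were compared with the quasi-likelihood test of edgeR on all 13377 genes that passed a filter on low counts, and a positive log2 fold change (with its SE) means a higher level with insulin. Hepatocyte markers were abundant in every library, with Alb at 38255 CPM or more, but not even. The 6 on the list summed to 63193, 152990 and 96883 CPM in the vehicle mice and to 64834, 67038 and 52402 CPM in the insulin mice. Of them 5 had a log2 fold change below 0 and 1 above, with a median of −0.77 (−0.38 without vehicle replicate 2). Vehicle replicate 2 stood apart. Its log2 levels, set against the other libraries, fell by 1.13 for each 10 points of transcript GC content, against slopes of −0.064 to 0.19 in the other 5 libraries. Vehicle replicate 2 was the highest library for 35.8% of genes and the lowest for 37.4%. Differences of the members are therefore also given without it, or with an offset for GC content, where they move.

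Across the whole table, 0 genes reached an adjusted p under 0.05 by edgeR, DESeq2 or limma voom (percent called 0.00), while 383 (2.86%), 507 and 213 genes respectively had an unadjusted p under 0.05. The study's own criteria were a log2 difference of 0.35 or more in size and an unadjusted p under 0.05. They were met by 2.86% of genes, 1.0% higher and 1.86% lower with insulin. Of the 10 members, 2 met them, both higher (Tbx3 and Rnf43), and 0 were lower. The study had picked Rnf43 partly on these same libraries. Its place in this count, and among the genes without overlap below, is therefore no independent evidence. The groups did not overlap for 12.3% of genes, 6.25% with insulin higher and 6.04% with insulin lower, and for the members these counts were 2 (Tbx3 and Rnf43) and 1 (Lgr4). The 10 log2 fold changes ran from −0.72 to 1.13, with 5 above 0 (48.6% of all genes were) and 5 below, and their median of −0.0046 lay beside a median of −0.017 for all genes tested. Every member had an adjusted p of at least 0.852 (edgeR), so none of the differences below passes the test across all genes. In counts simulated at the common spread of these libraries, 10% of 2-fold and 71% of 4-fold changes reached an adjusted p under 0.05. A difference that does not pass is therefore not shown to be absent. In whole liver, fewer cells of a type and less RNA per cell cannot be told apart.

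**Figure D1:**
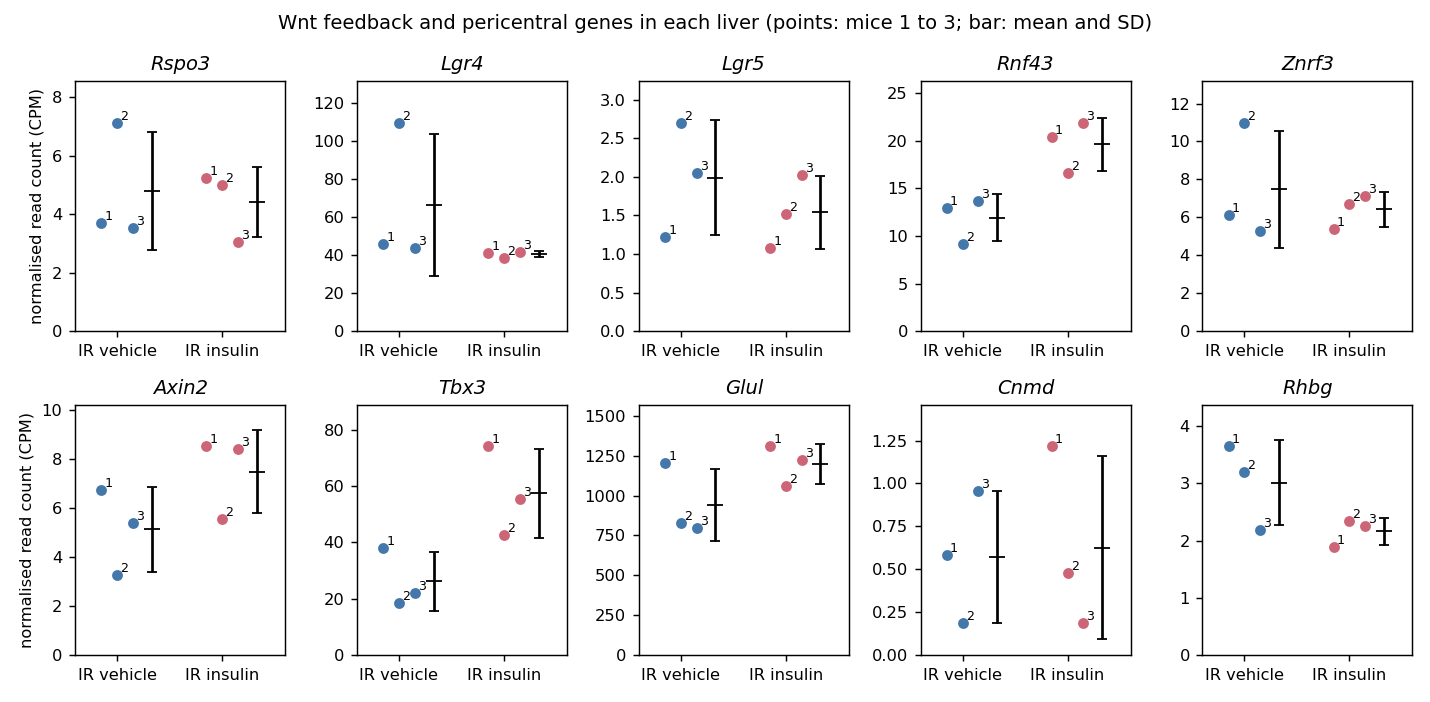
Normalised read counts (CPM, linear axes from 0) of the 10 members in each liver; blue points are IR vehicle and red points IR insulin, numbered by mouse, with the mean and SD (n = 3) beside them. Tbx3 and Rnf43 are higher in all 3 insulin mice than in all 3 vehicle mice, while Lgr4 is set apart by vehicle mouse 2 at 109.8 CPM.

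RefSeq promoters (GRCm38.p6, from 250 bases before to 50 after a transcription start) were at hand for Rnf43 (2 starts), Lgr4, Axin2, Glul and Cnmd. No link between promoter sequence and the differences between the groups was tested. The stretches before the starts of Axin2, Glul and Lgr4 are shown as examples, and those of Rnf43 and Cnmd are not. They lie at chr11:108920099-108920348, chr1:153899679-153899928 and chr2:109917397-109917646, all on the plus strand, and capitals mark the word CCAAT, the core of a common promoter element.
Axin2: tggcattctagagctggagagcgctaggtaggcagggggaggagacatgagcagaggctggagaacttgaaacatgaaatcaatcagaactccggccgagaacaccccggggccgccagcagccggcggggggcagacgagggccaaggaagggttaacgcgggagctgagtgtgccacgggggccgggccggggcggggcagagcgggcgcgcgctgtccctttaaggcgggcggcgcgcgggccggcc
Glul: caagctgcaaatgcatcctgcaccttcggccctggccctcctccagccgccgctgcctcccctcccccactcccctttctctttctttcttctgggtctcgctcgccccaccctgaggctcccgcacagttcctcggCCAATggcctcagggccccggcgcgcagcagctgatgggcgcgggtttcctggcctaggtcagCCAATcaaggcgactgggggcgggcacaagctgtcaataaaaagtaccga
Lgr4: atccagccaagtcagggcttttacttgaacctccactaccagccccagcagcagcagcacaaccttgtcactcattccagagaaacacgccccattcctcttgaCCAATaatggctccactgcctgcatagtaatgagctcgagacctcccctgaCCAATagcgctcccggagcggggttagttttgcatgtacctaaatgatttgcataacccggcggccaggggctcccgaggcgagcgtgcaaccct

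The core words of the site bound by TCF/LEF factors, the DNA-binding partners of β-catenin, were searched on both strands as CTTTGAA or CTTTGAT. They occurred in none of the 6 windows of 300 bases at the starts of these 5 members, while 8.65% of 32851 RefSeq promoters of the same length hold either word. At that share, 6 windows are too few for their absence to set the members apart. Other forms of the site and DNA farther from the starts were not searched. CCAAT, searched likewise, occurred 2 times each in the windows of Glul and Lgr4, 1 time in that of Axin2 (after the start, so not in the stretch above) and in 37.4% of all promoters. The promoter windows differed in composition, with a GC content of 70% for Axin2, 64.3% for Glul, 58.3% for Lgr4, 56% for Cnmd, and 46.7% and 44.3% for the 2 starts of Rnf43.

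Levels of different genes were compared per kilobase of the longest transcript (CPM per kb, mean ± SD over the 6 libraries). Glul was far above the others at 383 ± 76.9 CPM per kb. Lgr4 (10.6 ± 5.47) and Tbx3 (8.38 ± 4.19) followed, and their means over the 6 libraries give them no single order. Lgr4 was the higher of the pair in 3 of 6 libraries, those of the vehicle mice, and Tbx3 in those of the insulin mice. This split by group was seen in the values and was not tested. Rnf43 (3.66 ± 1.12) lay below Tbx3 in 6 of 6 libraries and above Rspo3 in 5 of 6. Rspo3 (1.49 ± 0.486), Axin2 (1.48 ± 0.471), Rhbg (1.34 ± 0.35) and Znrf3 (1.10 ± 0.334) overlapped in range. Cnmd (0.418 ± 0.290) and Lgr5 (0.368 ± 0.127) were lowest, with counts of 3 to 27 reads for Cnmd and 23 to 44 for Lgr5.

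Rspo3 encodes the R-spondin that liver endothelial and stellate cells secrete. The gene lies on chromosome 10 (29452416 to 29535867, minus strand, GRCm38) and shares 404 exonic bases with Gm48159 on the other strand, which had 0 counts in all libraries. Its levels were 3.70, 7.12 and 3.53 CPM in the vehicle mice and 5.22, 4.98 and 3.04 CPM in the insulin mice. Vehicle mouse 2 was the highest and insulin mouse 3 the lowest, and the groups overlapped. The log2 fold change was −0.11 ± 0.39 (95% interval −1.01 to 0.79, unadjusted p 0.781, edgeR), and it was 0.29 without vehicle replicate 2 and 0.092 with the GC offset. Markers of endothelial cells (8 of 8 tested) summed to 167 to 337 CPM with vehicle and 200 to 212 CPM with insulin. Of them 7 had a log2 fold change below 0 and 1 above (median −0.18). Without vehicle replicate 2 all 8 were below 0. Without vehicle replicate 3, the highest library for 6 of them, 3 were below and 5 above. Markers of stellate cells (8 of 8 tested) summed to 268 to 325 and 207 to 358 CPM, with 5 below 0 and 3 above (median −0.074). No marker of either list was at 0 in any library. The part of these cells in the Rspo3 level was not tested.

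The receptors of R-spondins were unequal in level. Lgr4 (chromosome 2, 109917647 to 110014257, plus strand) exceeded Lgr5 (chromosome 10, 115450311 to 115587780, minus strand, with the antisense A930009A15Rik at no more than 2 reads) per kilobase in every library, by 19.4 to 38.5 times. Lgr4, the receptor found throughout the lobule, was at 45.9, 109.8 and 44.0 CPM with vehicle and at 41.2, 38.8 and 41.6 CPM with insulin. All 3 insulin values lay below all vehicle values, but vehicle mice 1 and 3 exceeded the highest insulin mouse by only a small margin and mouse 2 by far. The log2 fold change of −0.72 ± 0.37 (unadjusted p 0.0897, edgeR) became −0.15 (p 0.302) without vehicle replicate 2. It was −0.94 without vehicle replicate 3, where the unadjusted p of 0.0335 met the study's criteria.

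Lgr5, which marks the hepatocytes next to the central vein, was at 1.22, 2.70 and 2.05 CPM with vehicle and at 1.08, 1.52 and 2.03 CPM with insulin. Vehicle mouse 2 was highest and insulin mouse 1 lowest, and the groups overlapped. Its log2 fold change was −0.36 ± 0.44 (95% interval −1.39 to 0.66, unadjusted p 0.437), and −0.085 without vehicle replicate 2.

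Rnf43, the first of the ubiquitin ligases, lies on chromosome 11 (87662722 to 87735539, plus strand). Its span contains 1110028F11Rik and Gm25968, but none of its exonic bases is shared with either. The study picked Rnf43 as a candidate partly on these same libraries, at stricter cut-offs than the criteria above, so its difference here is no independent evidence. Candidates also had to be positively associated with the fatty acid synthase gene, in public human data as well. The study then measured them by RT–PCR, which is not examined here. It was at 12.9, 9.15 and 13.7 CPM with vehicle and at 20.4, 16.6 and 21.9 CPM with insulin. The lowest insulin mouse exceeded the highest vehicle mouse, and vehicle mouse 2 was lowest of all. Insulin over vehicle gave a log2 fold change of 0.72 ± 0.25, or a fold of 1.64 (95% interval 0.14 to 1.3 on the log2 scale, unadjusted p 0.0213, edgeR). It was 0.56 (p 0.0150) without vehicle replicate 2 and 0.36 (p 0.105) with the GC offset. Without insulin replicate 1 it was 0.69 (p 0.0702) and without insulin replicate 3 it was 0.64 (p 0.0796), nearly as large but past the threshold no longer.

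Znrf3 encodes the second ligase and lies on the same chromosome (5276324 to 5444847, minus strand, overlapping no annotated gene). It was at 6.13, 11 and 5.29 CPM with vehicle and at 5.4, 6.71 and 7.15 CPM with insulin. The insulin values fell inside the vehicle range, and vehicle mouse 2 was again the extreme, here the highest. The log2 fold change of −0.22 ± 0.34 (95% interval −1.0 to 0.57, unadjusted p 0.543) turned to 0.17 without vehicle replicate 2. Per kilobase, the ratio of Rnf43 to Znrf3 was 3.08, 1.22 and 3.80 in the vehicle mice and 5.53, 3.62 and 4.49 in the insulin mice. These ratios overlapped between the groups, at vehicle mouse 3 and insulin mouse 2.

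The 4 genes whose pattern over the 6 libraries was nearest to that of Rnf43, by root mean square distance of centred log2 CPM among 10197 protein-coding genes, were Fam129b (distance 0.0902), Spata2 (0.0947), Notch1 (0.0982) and Mta1 (0.108), where the median gene was at 0.541. Transcript GC content was 59.2%, 54.3%, 57.1% and 57.4% for these 4 genes in that order, and 56.1% for Rnf43. Among the members, Axin2 was nearest (0.199, rank 134 among the 10197 genes), ahead of Glul (0.293, rank 904) and Tbx3 (0.377, rank 2219). Many genes outside the circuit were thus nearer to Rnf43 than any member. Znrf3, the closest relative of Rnf43 in function, was at 0.687. Rnf43, these 4 genes, Axin2 and Tbx3 were all lowest in vehicle replicate 2, where Znrf3 was highest. Without that library, a setting chosen after seeing the data, 0 of the 4 genes were among the 4 nearest. They stayed close to Rnf43, with Fam129b at rank 17 (0.0986), Spata2 at 19 (0.0990), Notch1 at 20 (0.101) and Mta1 at 7 (0.0730). Axin2 (0.207, rank 538) and Glul (0.262, rank 1601) were still the nearest members, while Znrf3 (0.286) was nearer than the median gene (0.358) and Tbx3 (0.387) farther.

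Axin2 encodes a scaffold of the β-catenin destruction complex and is the most widely used readout of Wnt signalling. It lies on chromosome 11 (108920349 to 108950783, plus strand). It shares 209 exonic bases with Gm11670 on the other strand, which had at most 1 read in any library. Axin2 was at 6.72, 3.25 and 5.39 CPM with vehicle and at 8.51, 5.54 and 8.40 CPM with insulin. Insulin mice 1 and 3 were above every vehicle mouse, whereas insulin mouse 2 lay below vehicle mouse 1. Its log2 fold change was 0.54 ± 0.35 (95% interval −0.26 to 1.35, unadjusted p 0.156), 0.31 without vehicle replicate 2 and 0.29 with the GC offset. The sign was the same in all 12 alternative settings and the unadjusted p under 0.05 in 0 of them.

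Tbx3 showed the largest log2 fold change of the 10 genes. It encodes a T-box transcription repressor that acts downstream of β-catenin in hepatocytes, and lies on chromosome 5 (119670669 to 119684724, plus strand). In the vehicle mice it was at 38.1, 18.4 and 22.0 CPM and in the insulin mice at 74.1, 42.5 and 55.5 CPM. The lowest insulin mouse was above the highest vehicle mouse, and the vehicle mean of 26.2 ± 10.5 CPM compared with an insulin mean of 57.4 ± 15.9 CPM. For Tbx3 the log2 fold change was 1.13 ± 0.34, a fold of 2.19 (95% interval 0.34 to 1.92 on the log2 scale, unadjusted p 0.0110, adjusted p 0.852, edgeR). It was 0.93 (p 0.0207) without vehicle replicate 2 and 0.88 (p 0.0127) with the GC offset. Over all 12 alternatives it ran from 0.81 to 1.5 with unadjusted p values from 0.00258 to 0.0496. The gene shares 115 exonic bases with the antisense gene Tbx3os1, which had 4 to 38 reads per library against 300 to 1645 for Tbx3. Use of strand in counting was not stated, so reads from those bases cannot be assigned.

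**Figure D2:**
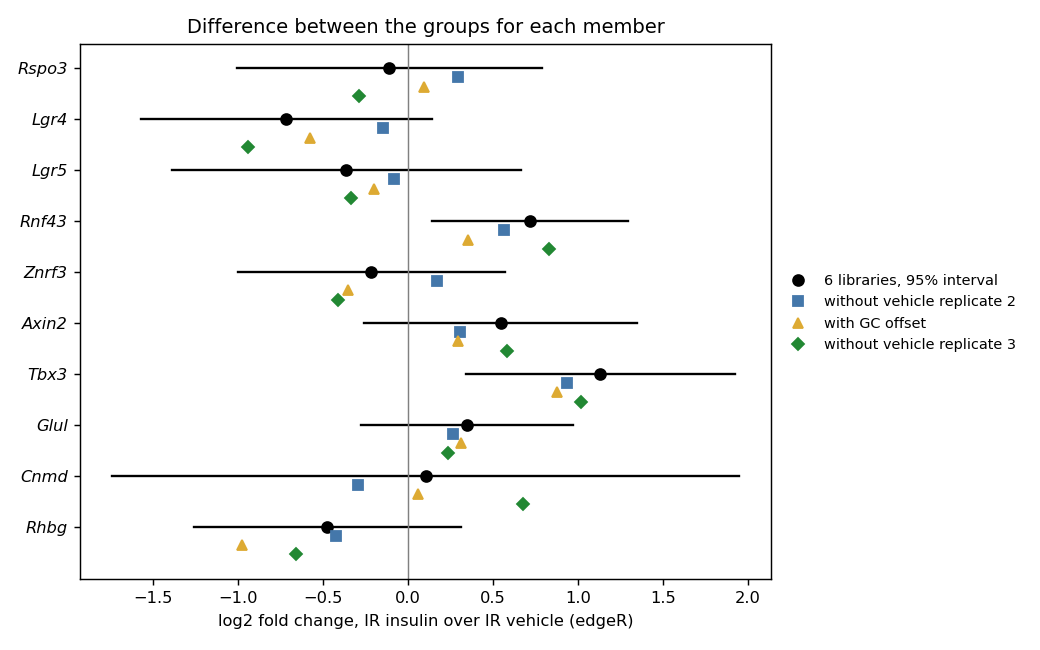
Log2 fold change of each member (IR insulin over IR vehicle, edgeR, 6 libraries) as black points with 95% intervals; coloured markers give the value without vehicle replicate 2, with a GC offset, and without vehicle replicate 3. The intervals of Tbx3 (0.34 to 1.92) and Rnf43 (0.14 to 1.3) lie above 0, and those of the other 8 genes include 0.

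Glul encodes glutamine synthetase, which detoxifies ammonia in the last layers of hepatocytes before the central vein. It lies on chromosome 1 (153899944 to 153909723, plus strand) and shares 209 exonic bases with Teddm2 and Mir8114. These had at most 26 and 0 reads per library, while Glul had 13499 to 29069. In the vehicle mice Glul was at 1203, 829 and 797 CPM, and in the insulin mice at 1309, 1059 and 1223 CPM. Vehicle mouse 1 lay between the insulin mice, so the groups overlapped. A log2 fold change of 0.34 ± 0.27 (95% interval −0.28 to 0.97, unadjusted p 0.239) was 0.26 without vehicle replicate 2 and 0.31 with the GC offset. As for Axin2, the sign held in 12 of 12 alternatives with no unadjusted p under 0.05.

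Cnmd (chromosome 14, 79637690 to 79662170, minus strand), formerly Lect1, encodes a chondromodulin first known from cartilage and overlaps no annotated gene. It was at 0.582, 0.184 and 0.954 CPM with vehicle and at 1.22, 0.476 and 0.185 CPM with insulin. Both groups spanned nearly the same range. With 3 to 27 reads per library the log2 fold change of 0.10 ± 0.80 has a 95% interval of −1.74 to 1.95 (unadjusted p 0.901), and its sign changed without vehicle replicate 2 (−0.29) or insulin replicate 1 (−0.79).

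Rhbg encodes an ammonia transporter of pericentral hepatocytes and lies on chromosome 3 (88242874 to 88254709, minus strand). It was at 3.65, 3.19 and 2.19 CPM with vehicle and at 1.89, 2.34 and 2.26 CPM with insulin. The first pair of vehicle mice were above all insulin mice, and vehicle mouse 3 was among them. The log2 fold change of −0.47 ± 0.34 (95% interval −1.26 to 0.31, unadjusted p 0.201) was −0.98 (p 0.0558) with the GC offset. Rhbg shares 1190 exonic bases with Gm38392 on the same strand, which had 0 counts in all libraries, so its level depends on how shared reads were assigned.

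The members differ in GC content, and several, though not all, of their levels in vehicle replicate 2 followed the slope over all genes. Rnf43 (56.1% GC), Axin2 (54.6%) and Tbx3 (54.2%) were below the median of the other 5 libraries there, by log2 deviations of −0.85, −1.02 and −1.20. Rspo3 (44.1%), Lgr5 (44.7%) and Lgr4 (46.3%) were above it, by 0.93, 0.80 and 1.40. Rhbg, the member richest in GC at 56.9%, was nevertheless above it by 0.48, and Znrf3 (50.7%) by 0.83. Cnmd (49.1%) and Glul (49.2%), of middling GC content, were below it, by −1.27 and −0.54, and the deviation of Cnmd was the lowest of the 10. Beyond the offset and the omission of that library, the part of GC content in the differences was not tested.

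**Figure D3:**
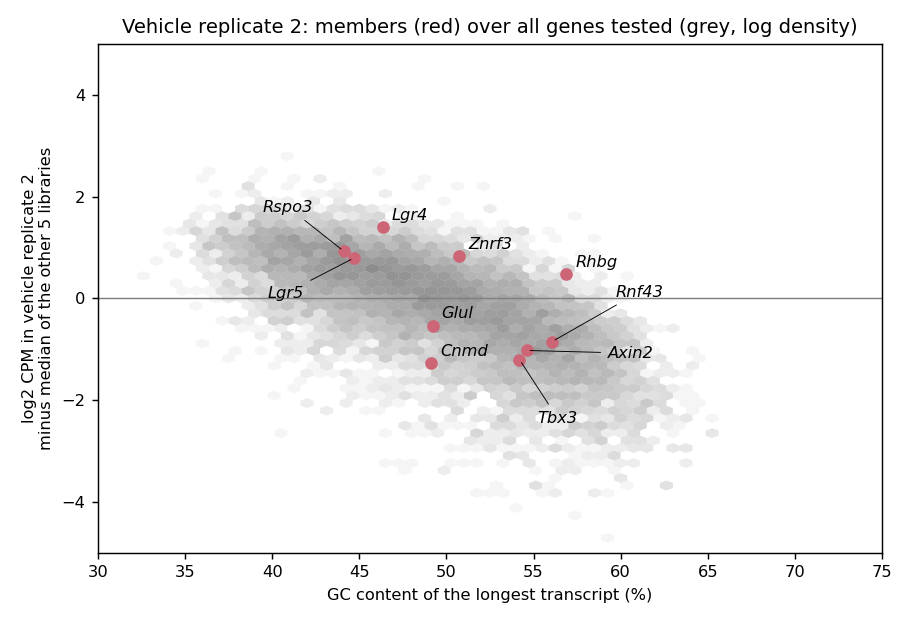
Log2 CPM in vehicle replicate 2 minus the median over the other 5 libraries (vertical axis) against GC content of the longest transcript (horizontal axis), with all genes tested as a grey density (log colour scale) and the members as red points. Tbx3, Axin2 and Rnf43 lie between −0.85 and −1.20 at 54.2 to 56.1% GC, and Lgr4 lies at 1.40.

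Other Wnt ligands and secreted regulators were sparse in liver. Of 36 genes on that list, 12 passed the filter on low counts and 10 had no read in any library. Of the 12, 6 had a log2 fold change above 0 and 6 below, with a median of −0.010, and 0 met the study's criteria (1, Rspo1, without vehicle replicate 3). Wnt5b (7.68 to 16.2 CPM over the 6 libraries) and Notum, which encodes a secreted Wnt deacylase (3.50 to 15.9 CPM), were highest. Wnt9a was at 0.634, 0.614 and 0.620 CPM in the vehicle mice and at 1.13, 1.13 and 0.784 CPM in the insulin mice, a log2 fold change of 0.70 ± 0.42 (unadjusted p 0.139). This rests on 10 to 26 reads per library. It was 0.30 with the GC offset and ran from 0.61 to 0.86 when 1 library was left out. Wls, needed for Wnt secretion, was lower in every insulin mouse (3.47 to 3.94 CPM) than in every vehicle mouse (3.97 to 5.77 CPM), though by a narrow margin. Its log2 fold change was −0.43 ± 0.29 (unadjusted p 0.173). With the GC offset and with voom Wls was at −0.23, and it ran from −0.58 to −0.33 when 1 library was left out. Wnt2 (−0.66 ± 0.49) and Rspo1 (0.33 ± 0.73) overlapped between groups. Wnt2 was at −0.092 without vehicle replicate 3, and Rspo1 was at 1.56 without vehicle replicate 3, −0.099 without vehicle replicate 1 and 0.062 without vehicle replicate 2.

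Of 37 Wnt receptor and transduction genes, 27 were tested, 16 with a log2 fold change above 0 and 11 below, and 0 met the study's criteria (0 to 2 over the 12 alternatives, 2 without vehicle replicate 2). Their median was 0.24, and −0.086 with the GC offset, under which 9 were above 0 and 18 below. The 4 with the smallest p encode Dishevelled adaptors, a β-catenin cofactor and a Wnt co-receptor, namely Dvl2 (1.04 ± 0.52, unadjusted p 0.0818), Pygo2 (0.55 ± 0.30), Dvl3 (0.52 ± 0.30) and Lrp5 (0.55 ± 0.35). Without vehicle replicate 2, Pygo2 was at 0.30, Dvl3 at 0.27 and Lrp5 at 0.27, and with the GC offset they were at 0.13, 0.25 and 0.31. Vehicle replicate 2 was the lowest library for each of these 4, and for 13 of the 27 genes. Dvl2 was at 3.38, 0.737 and 3.39 CPM with vehicle and at 5.58, 4.63 and 5.30 CPM with insulin, with a log2 fold change of 0.61 (unadjusted p 0.0359) without vehicle replicate 2. It shares 1240 exonic bases with Acadvl on the other strand, at 124 to 297 CPM, and Mir324, so its reads cannot be told from those of Acadvl there. Ctnnb1, which encodes β-catenin itself, was at 191, 307 and 154 CPM in the vehicle mice and at 179, 191 and 200 CPM in the insulin mice (log2 fold change −0.19 ± 0.29, unadjusted p 0.532). Csnk1a1, the priming kinase of the destruction complex, was the other most abundant gene of the list (−0.40 ± 0.31).

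A wider list of 20 pericentral hepatocyte genes was split in direction. All 20 were tested, 8 with a log2 fold change above 0 and 12 below, and the median was −0.14 (0.0052 without vehicle replicate 2). By the study's criteria 0 were higher and 1 was lower, Ahr, which encodes the aryl hydrocarbon receptor. No gene met them with voom or without insulin replicate 1 or 2. With the GC offset 2 were lower, and without vehicle replicate 3, 1 was higher and 2 were lower. Under these 2 settings 3.53% and 6.55% of all genes met the criteria. Ahr was at 19.1, 57.0 and 31.5 CPM with vehicle and at 12.2, 12.8 and 23.2 CPM with insulin, so the groups overlapped (log2 fold change −1.16 ± 0.44, unadjusted p 0.0300). Without vehicle replicate 2 it was −0.66 (unadjusted p 0.0915). Without insulin replicates 1 and 2 it was about as large, at −1.0 and −1.02, with unadjusted p values of 0.0974 and 0.0958. Ahr shares 127 exonic bases with the antisense gene Gm48236, which had at most 8 reads in any library. Cyp1a2, a target of that receptor (−0.62 ± 0.38), Cyp2c37 (−0.55 ± 0.34) and Slc13a3 (0.59 ± 0.40) followed. Cyp1a2 was at −0.057 without vehicle replicate 3, −0.84 without vehicle replicate 2 (unadjusted p 0.0449, edgeR) and −0.77 with the GC offset (unadjusted p 0.0411, edgeR). Cyp2c37 was at −0.11 without vehicle replicate 2, −0.30 with the GC offset and −0.065 with voom. Slc13a3 was at 0.31 without vehicle replicate 3, 0.20 without insulin replicate 1 and 0.12 with the GC offset. Cyp2c genes are close paralogs, which leaves the value of Cyp2c37 uncertain. The most abundant, Cyp2e1, ran from 9051 to 14132 CPM in the vehicle mice and from 7349 to 9452 CPM in the insulin mice (−0.41 ± 0.31), and Oat, which encodes ornithine aminotransferase, was at −0.45 ± 0.42. Cyp1a2 was 424 CPM in vehicle mouse 3 and 157 to 184 CPM in the other 5 mice.

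For the opposite zone, 17 of 17 periportal genes had a log2 fold change below 0, with a median of −0.60. Vehicle replicate 3 was the highest library for 15 of the 17, and for 23.4% of all genes tested. Without it 11 were below 0 and 6 above, with a median of −0.13. By the study's criteria 2 were lower, Hsd17b6 (−0.94 ± 0.36, unadjusted p 0.0321) and Etnppl (−2.77 ± 1.15, unadjusted p 0.0428), and the count was 0 without vehicle replicate 3, insulin replicate 1 or insulin replicate 2 and with voom, 1 without insulin replicate 3, 6 with the GC offset, 6 without vehicle replicate 1 and 7 without vehicle replicate 2. Under the last 3 settings the criteria were met, in either direction, by 3.53%, 9.89% and 3.6% of all genes. Etnppl, which encodes a phospholyase, was at 511 CPM in vehicle mouse 3 and 15.5 to 35.8 CPM in the other 5. Hal, which encodes histidine ammonia lyase, reached 785 CPM in that mouse, with the others between 86.3 and 141 CPM (−1.69 ± 0.73), and Uroc1 was at −0.56 ± 0.27. The most abundant, Cps1, the entry enzyme of the urea cycle, ran from 3144 to 6393 CPM with vehicle and from 2704 to 3753 CPM with insulin, and Pck1, a gluconeogenic enzyme, was at −0.93 ± 0.54. On the pericentral list, vehicle replicate 3 was highest for 5 and lowest for 7 of 20 genes, and among the members it was highest for 0 and lowest for 2 of 10. Over all genes tested it was highest for 23.4% and lowest for 23.8%.

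**Figure D4:**
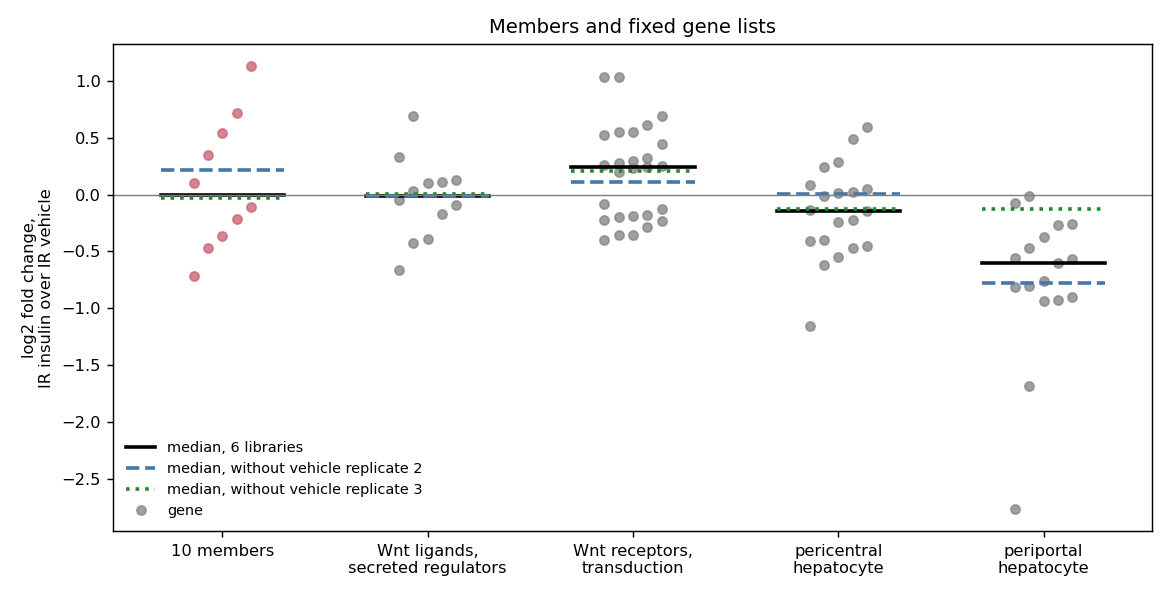
Log2 fold change (IR insulin over IR vehicle, edgeR) of each tested gene of the members and of 4 fixed lists, 1 point per gene, with list medians from all 6 libraries (solid) and without vehicle replicate 2 (dashed) or 3 (dotted). The members spread from −0.72 to 1.13 about 0, and the periportal median moves from −0.60 to −0.13 without vehicle replicate 3.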

How the data were processed

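Liver RNA of 6 mice, 3 per group by their labels, was measured. Raw read counts per Ensembl gene, 1 column per mouse, were deposited. According to the methods and the submitters' processing notes, the authors aligned reads of NEBNext Ultra libraries (Illumina HiSeq) with Bowtie2 2.2.3 to mm10. Counting program, annotation and strand setting are not given in the sources used here, and an aligner without splicing can lose junction reads. Identifiers matched GENCODE M21 (GRCm38) for 99.9% of 54532 genes. That release gave positions, overlaps, and length and GC content of the longest transcript.

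Counts were tested with edgeR 4.0.16 (R 4.3.3; TMM, filterByExpr with minimum count 10 and total 15, glmQLFit, glmQLFTest, Benjamini-Hochberg over 13377 genes), after the script was tested on simulated data. SEs were derived from the F statistic and 95% intervals from its degrees of freedom. Alternatives were RLE factors, no filter, DESeq2 1.42.0, limma 3.58.1 voom with quality weights, a replicate block, a loess GC offset (span 0.5) and leaving out each library. Log2 CPM used a prior count of 2. An exact permutation test of 3 against 3 cannot give p under 0.1 and was not used. The biological coefficient of variation was 0.357. Cnmd (3 to 27 reads per library) and Lgr5 (23 to 44) had the fewest counts among members.

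Members and lists were chosen with earlier results of these data known. Named are all members, the 4 smallest p and 2 highest levels of each Wnt and zonation list, the highest gene of each cell-type marker list, and the 4 protein-coding genes (mean of at least 50 counts) nearest to Rnf43. Other genes, and the ratios between members, were chosen after their values were seen. Tf was matched as Trf.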

Additional observations from a re-analysis of the deposited data

How the results depend on the processing

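By edgeR, DESeq2 and voom, 0 genes passed an adjusted p of 0.05 in any of the 12 alternatives. Of 120 member values under alternatives, 107 kept both sign and side of the study's criteria, 3 (all Rnf43) lost them, 1 (Lgr4 without vehicle replicate 3) gained them and 9 changed sign. Tbx3 met the criteria in 12 of 12 and Rnf43 in 9 of 12. The number of members meeting them was 2 and became 1 with the GC offset, and ran from 1 to 3 when 1 library was left out. The members' median log2 fold change then ran from −0.13 to 0.22. Sign changes were Rspo3 with the GC offset (0.092) and, with voom, Rspo3 (0.30), Znrf3 (0.016) and Cnmd (−0.032). Leaving out 1 library gave ranges of −0.29 to 0.29 for Rspo3, −0.41 to 0.17 for Znrf3 and −0.79 to 0.68 for Cnmd. The cause was not tested.

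Over all genes, 383 met the criteria, 742 with no filter on low counts (23040 genes tested), 213 with voom, and 90 (without insulin replicate 1) to 1323 (without vehicle replicate 1) when a library was left out. Without vehicle replicate 3 the number was 876, and it was 128 without insulin replicate 2 and 114 without insulin replicate 3. Of the genes meeting them, 35% were higher with insulin, against 19.7% with the GC offset, 63.2% with the replicate block and 50.7% with voom.

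Replicate numbers are shared by the groups, but nothing in the labels pairs the mice, and same-numbered libraries deviated from their group means with correlations of −0.039, 0.069 and 0.017 across genes, which are not independent. With the replicate block, 321 genes and 2 members met the criteria. Not every library correlated best with its own number.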

Other observations

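The ratio of Tbx3 to Axin2 per kilobase was 4.85, 4.84 and 3.50 in the vehicle mice and 7.44, 6.56 and 5.65 in the insulin mice, without overlap. The other ratios taken, of Rnf43 to Znrf3 and of Lgr4 to Lgr5, overlapped between the groups. These ratios were chosen after the values were seen and carry no test.

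Markers of other liver cells differed between libraries as follows. The 5 Kupffer cell markers, of which Cd5l was highest on average, summed to 211 to 317 CPM with vehicle and 236 to 476 CPM with insulin. The 5 bile duct markers, led by Spp1, summed to 19.8 to 45.4 and 23.0 to 50.8 CPM, with Krt7 at 0 in vehicle replicate 2 and Epcam below the filter. Dcn was highest among the stellate markers and Clec4g among the endothelial ones. On the 5 marker lists, Serpina1a met the study's criteria and the 30 other tested genes did not. Over all genes tested, 2.86% met them. Serpina1a, one of a family of close paralogs, had a log2 fold change of −0.75 ± 0.31 (unadjusted p 0.0397, edgeR), with unadjusted p values from 0.00877 (without vehicle replicate 1) to 0.127 (without insulin replicate 2) over the 12 alternatives. It was named after its values were seen.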
